A study of Mus musculus with 8 samples.

Results

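The genes described here are 7 transcription factor genes of the circadian clock's output and accessory loops: Dbp, Tef, Hlf, Nfil3, Bhlhe40, Bhlhe41 and Rora. They were picked by gene symbol, among 18217 symbols on the array, and matched 12 of its 41174 non-control probes. Messenger RNA was measured in total heart RNA from C57BL/6J males, a standard inbred mouse strain, at 9 weeks of age and on a rodent pellet diet. The hearts came, as the labels number them, from 4 mice fasted for 2 days with free access to water and from 4 satiated mice, and each was hybridised to 1 one-colour Agilent array. The labels name no transgene, drug or other treatment in either group, and they give no hour of the day at which hearts were taken.

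The clock runs on a feedback loop in which CLOCK and its partner BMAL1 (gene Arntl) switch on genes through a DNA element called the E-box, while the PER and CRY proteins made from some of these genes shut the pair off again. DBP, TEF and HLF, the PAR bZIP factors, are made under this control and carry the rhythm onward by activating genes through a second element, the D-box, which NFIL3 (also called E4BP4) also binds but represses. BHLHE40 and BHLHE41 (DEC1 and DEC2) bind E-boxes and repress there, and RORA activates genes through the ROR element, at which the REV-ERB proteins, from Nr1d1 and Nr1d2, repress. In the heart the clock is known to time genes of metabolism and of electrical activity, and feeding is a known time cue for clocks outside the brain.

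Values are log2 signals relative to the 75th percentile of the same array, so 0 is that percentile and 1 unit is a 2-fold step. A level of one gene's probe cannot be set against that of another gene's probe. The arrays lay on 2 slides scanned apart, with replicates 1 and 2 of both groups on slide 1 and replicates 3 and 4 on slide 2. Changed means that limma gave an adjusted p (Benjamini-Hochberg, over the 20199 genes and unnamed probes tested) below 0.05. All 7 genes were well above background on all 8 arrays with their brightest probe and were tested. Differences are fasted minus satiated, ± SE, with 4 hearts per group.

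In the fasted hearts Dbp fell 5.90-fold and Bhlhe40 fell 1.59-fold, whereas Nfil3 rose 2.96-fold and Rora rose 1.68-fold. Tef, Hlf and Bhlhe41 did not pass the test. The 4 called genes of 7 compare with 20.2% of everything tested, 9.82% higher and 10.3% lower in the fasted hearts. The median difference of the 7 genes was -0.0028, against -0.0042 over all tested. The fasted and satiated hearts did not overlap for Dbp, Bhlhe40 and Rora, 3 of the 7, where 27.6% of all tested did not overlap (13.3% with the fasted hearts above, 14.3% with them below). With the slide as a block the same number, 4 of the 7, was called, against 35.5% of all tested. A block on replicate number also gave 4, against 32.1%. The plot of array values for the 7 genes shows each heart.

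**Figure D1:**
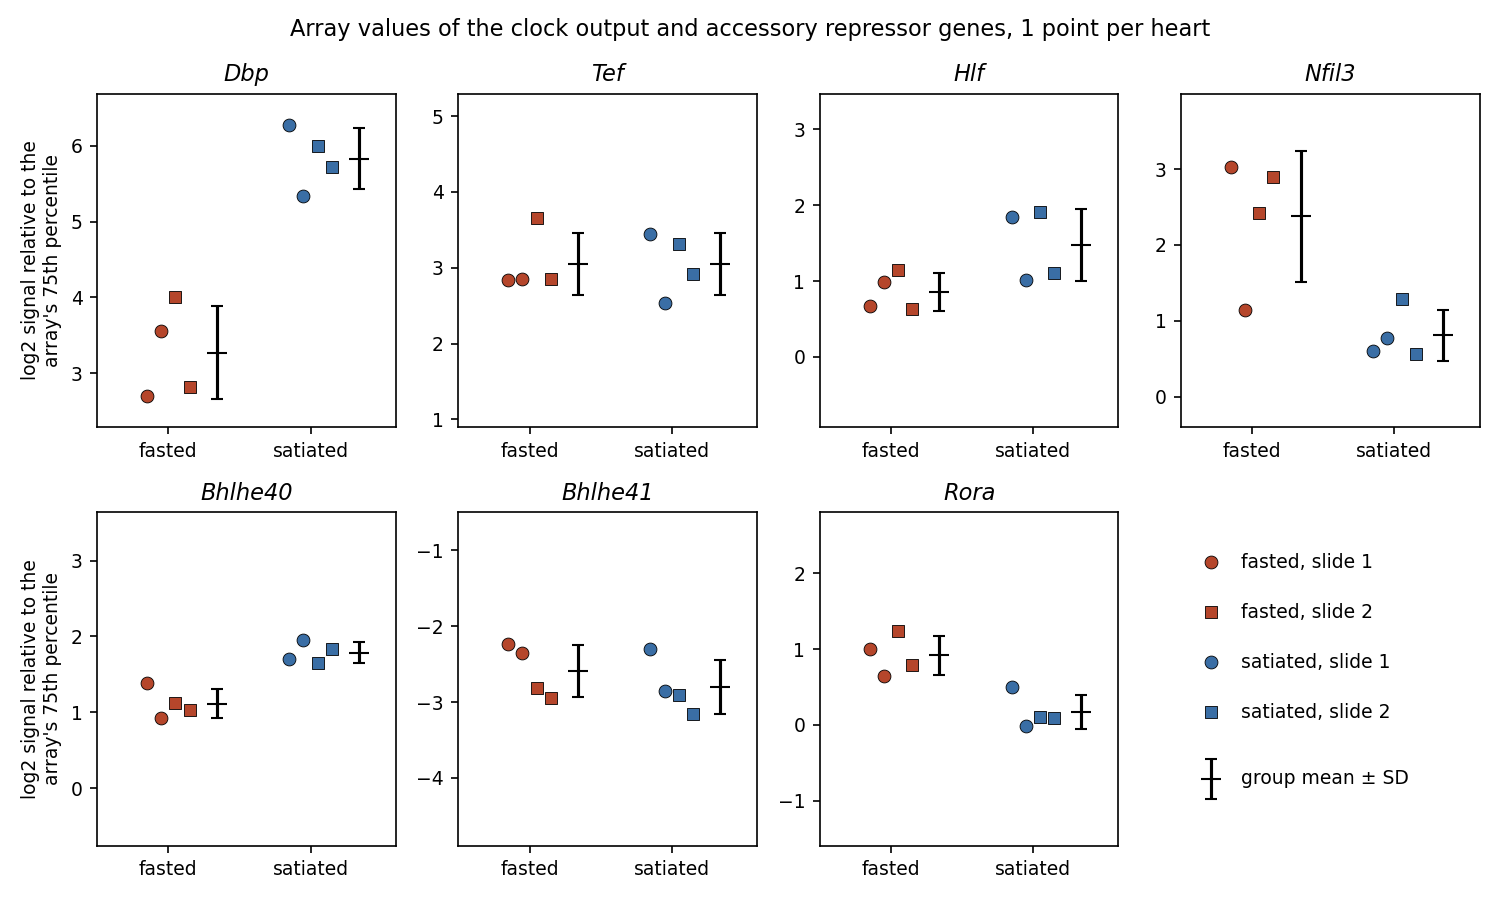
Each panel shows 1 gene by its brightest probe; the y axis is the log2 signal relative to the array's 75th percentile, over a span of equal height in all panels, each point is 1 heart (circles slide 1, squares slide 2), and the bar is the group mean ± SD (4 hearts). For Dbp the fasted hearts lie between 2.71 and 4.00 and the satiated hearts between 5.34 and 6.27, whereas for Tef both groups span about the same values.

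Promoter letters around the start sites were read for the 3 kinds of element through which these factors act (windows of 250 bases before to 50 bases after the start, RefSeq, GRCm38.p6, both strands). Of the 7 genes, 6 had a window in that table. Bhlhe40 had none, so its letters were not read, and no sequence outside the windows was searched. The E-box was searched as CACGTG, the D-box as TTATGTAA or TTACGTAA, and the ROR element by the 7 letters TAGGTCA; none of these strings contains another. They occur in 7.15%, 1.06% and 2.61% of all 32851 promoter windows. Among the 6 genes with a window the E-box letters were found for Tef and Bhlhe41, the ROR letters for Nfil3, and the D-box letters for none. In a list of 16 core clock genes, 13 of which had a window, the E-box letters were found for Ciart, Cry1 and Per1, the D-box letters for Per3 and Timeless and the ROR letters for Arntl. A match describes the sequence only, no binding was measured here, and whether the matches relate to the differences was not tested. The following stretches, 5′ to 3′ on the strand of the gene with the matched letters in capitals, show the element letters in 2 genes of the 7, Nfil3 and Bhlhe41, and in 2 genes of that list that changed. In Nfil3 the capitals are the ROR letters read from the other strand.
Nfil3, 12 bases before the start, chr13:52981040-52981071, minus strand: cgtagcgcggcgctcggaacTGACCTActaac
Arntl, 30 bases after the start, chr7:113207521-113207547, plus strand: catttagggaaggcagaaagTAGGTCA
Bhlhe41, 153 bases before the start, chr6:145865548-145865593, minus strand: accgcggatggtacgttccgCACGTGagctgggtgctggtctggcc
Per3, 205 bases before the start, chr4:151044843-151044890, minus strand: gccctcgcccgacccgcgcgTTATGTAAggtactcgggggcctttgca
Per3, 158 bases before the start, chr4:151044796-151044843, minus strand: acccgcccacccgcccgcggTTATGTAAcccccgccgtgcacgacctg

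Dbp is the PAR bZIP gene with the widest daily swing in most tissues. Its log2 level was 2.71, 3.55, 4.00 and 2.82 in fasted replicates 1 to 4, against 6.27, 5.34, 5.99 and 5.71 in satiated replicates 1 to 4. The highest fasted heart, replicate 3, thus stayed below the lowest satiated heart, replicate 2, and the fasted hearts were the more scattered group. Dbp averaged 3.27 ± 0.61 in the fasted hearts and 5.83 ± 0.40 in the satiated hearts (SD, n = 4 each), a difference of -2.56 ± 0.32 with a 95% interval of -3.30 to -1.82 (limma, adjusted p = 0.00195). The difference was -2.68 on slide 1 and -2.44 on slide 2. In an exact permutation test of Dbp alone, two-sided, p was 0.0286, the smallest that 4 against 4 hearts can give. Dbp had 1 probe on the array. In whole-heart RNA such a difference can come from fewer cells of a type or from less RNA per cell, which cannot be told apart. As no hour of collection is given, a difference in hour between the groups cannot be told apart from fasting for any gene here.

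Tef, a second PAR bZIP activator, differed little in mean. Its brightest probe read 2.84, 2.85, 3.66 and 2.86 in fasted replicates 1 to 4, against 3.45, 2.54, 3.31 and 2.91 in satiated replicates 1 to 4. Fasted replicate 3 stood apart from 3 nearly equal fasted hearts, and the satiated hearts spread over and below that range. The difference was -0.0028 ± 0.26, with a 95% interval of -0.60 to 0.60 (limma, adjusted p = 0.996), so the interval leaves room for a modest change in either direction. Its other 2 probes differed by 0.30 ± 0.23 and 0.16 ± 0.32 and did not pass either (limma over every probe, adjusted p = 0.396 and 0.772).

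Hlf, the third PAR bZIP activator, was 0.67, 0.98, 1.15 and 0.64 in fasted replicates 1 to 4, against 1.85, 1.01, 1.91 and 1.11 in satiated replicates 1 to 4. The groups overlapped because fasted replicate 3 lay above satiated replicates 2 and 4. The difference was -0.61 ± 0.25, with -0.60 on slide 1 and -0.62 on slide 2, and it did not pass over all genes (limma, adjusted p = 0.119). Within the PAR bZIP family, then, the log2 differences were -2.56 for Dbp, -0.61 for Hlf and -0.0028 for Tef; the differences between these 3 genes were not tested.

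Nfil3 encodes the repressor that binds the same D-box sites. Its level was 3.03, 1.15, 2.43 and 2.90 in fasted replicates 1 to 4, against 0.60, 0.77, 1.29 and 0.56 in satiated replicates 1 to 4. In 3 fasted hearts it was above every satiated heart, while fasted replicate 2 lay below satiated replicate 3, so that the groups overlapped. Nfil3 averaged 2.38 ± 0.86 in the fasted hearts and 0.81 ± 0.34 in the satiated hearts (SD, n = 4 each), a difference of 1.57 ± 0.40 with a 95% interval of 0.65 to 2.49 (limma, adjusted p = 0.0286). It was 1.40 on slide 1 and 1.74 on slide 2. Its other probe gave 1.63 ± 0.40 (limma over every probe, adjusted p = 0.0228) and placed the hearts alike, with 2.42, 0.60, 1.91 and 2.45 in fasted replicates 1 to 4 against 0.02, 0.19, 0.63 and 0.02 in satiated replicates 1 to 4. The exact permutation p for Nfil3 alone was 0.0571, two-sided. The Nfil3 call was lost when any of 6 arrays was left out (limma, adjusted p = 0.0613 to 0.0752). It held without fasted replicate 2, with a difference of 1.98, and without satiated replicate 3, with 1.73.

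**Figure D2:**
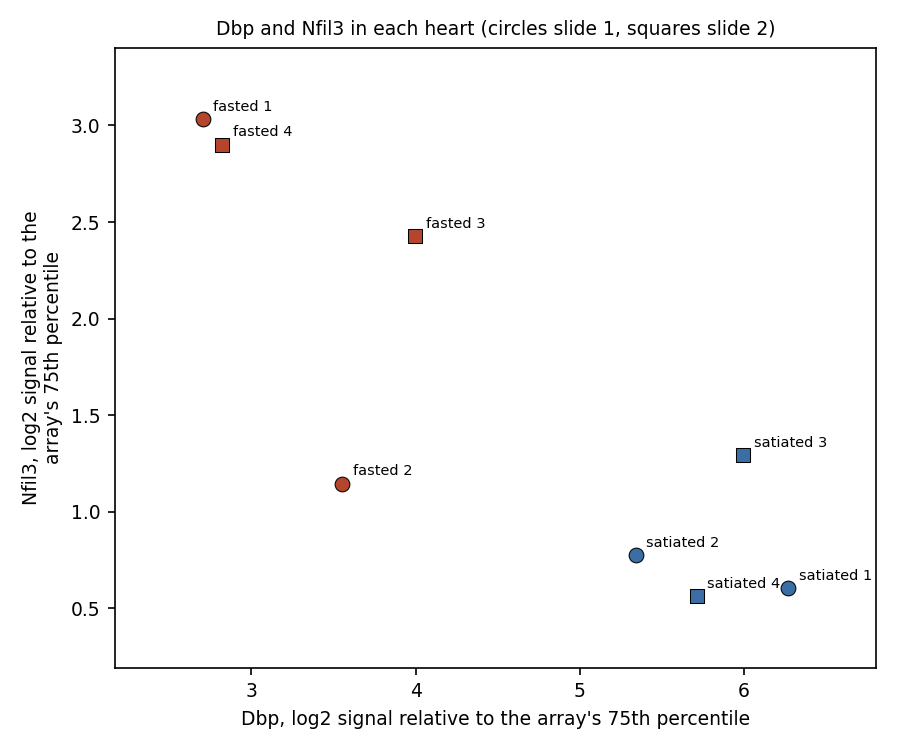
Each point is 1 heart (circles slide 1, squares slide 2), with the log2 signal of Dbp on the x axis and that of Nfil3 on the y axis, both relative to the array's 75th percentile. The fasted hearts lie at lower Dbp than all satiated hearts, and fasted replicate 2 is the fasted heart with the lowest Nfil3, 1.15.

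The E-box repressors Bhlhe40 and Bhlhe41 did not give the same call. Bhlhe40 was 1.38, 0.92, 1.13 and 1.03 in fasted replicates 1 to 4, against 1.71, 1.96, 1.65 and 1.84 in satiated replicates 1 to 4. All fasted hearts were below all satiated hearts, and both groups were tight. Bhlhe40 averaged 1.12 ± 0.20 in the fasted hearts and 1.79 ± 0.14 in the satiated hearts (SD, n = 4 each), a difference of -0.67 ± 0.14 that came out at -0.68 on slide 1 and -0.67 on slide 2 (limma, adjusted p = 0.0125). The exact permutation p for Bhlhe40 alone was 0.0286, two-sided. Bhlhe40, like Dbp, kept its call whichever array was left out.

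Bhlhe41 was -2.23, -2.36, -2.82 and -2.94 in fasted replicates 1 to 4, against -2.30, -2.85, -2.91 and -3.15 in satiated replicates 1 to 4. The groups overlapped. The difference was 0.22 ± 0.23, with a 95% interval of -0.31 to 0.74 (limma, adjusted p = 0.566). Its level was 0.52 lower on slide 2 than on slide 1 in a fit with both slide and fasting (slide term -0.52, limma, adjusted p = 0.027). The other Bhlhe41 probe was not well above background on any array and was not tested.

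Rora encodes the activator at ROR elements. It was 0.99, 0.65, 1.23 and 0.79 in fasted replicates 1 to 4, against 0.50, -0.02, 0.10 and 0.09 in satiated replicates 1 to 4. All fasted hearts were above all satiated hearts. Rora averaged 0.92 ± 0.26 in the fasted hearts and 0.17 ± 0.23 in the satiated hearts (SD, n = 4 each), a difference of 0.75 ± 0.17 with 0.58 on slide 1 and 0.92 on slide 2 (limma, adjusted p = 0.0189). Its other probe also rose, by 0.64 ± 0.19 (limma over every probe, adjusted p = 0.0419). The call was lost without fasted replicate 1 or satiated replicate 2, 3 or 4 (limma, adjusted p = 0.051 to 0.0572).

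**Figure D3:**
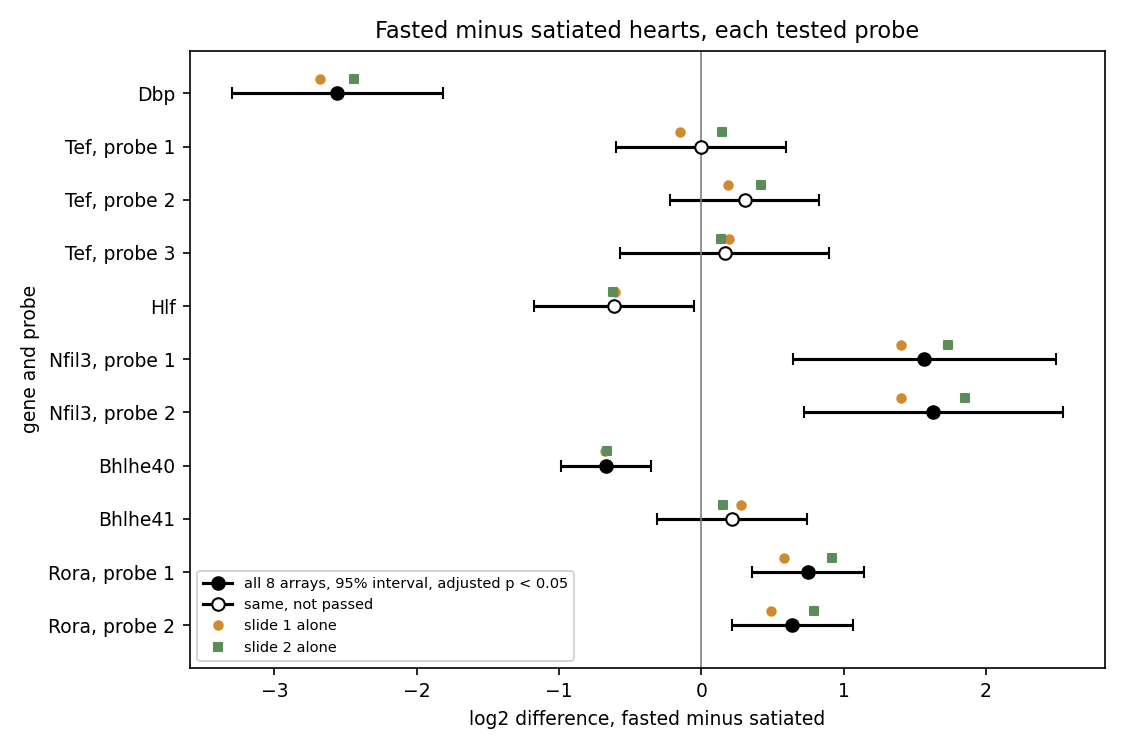
Rows are the 11 tested probes of the 7 genes; the x axis is the log2 difference, fasted minus satiated. Circles with 95% intervals use all 8 arrays (filled where the adjusted p was under 0.05), and the small markers give each slide alone. Every filled probe lies on the same side of 0 on both slides.

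The core clock genes that these factors act on or answer to were compared in the same fit. Of 16 listed genes 15 were tested, Rorb being too dim; 1 rose, 3 fell and 11 did not pass, so 26.7% were called against 20.2% of all tested. With the replicate number as a block 7 of the 15 were called, against 32.1% of all tested. The slide as a block gave 6 of the 15, against 35.5%. When only probes well above background on all 8 arrays were kept, 3 of 12 tested genes were called, against 25.4% of all tested. In the main fit the median difference of the 15 genes was 0.13.

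Arntl, which encodes BMAL1, rose by 2.34 ± 0.64 (limma, adjusted p = 0.0359). It was 1.42, 1.22, 0.38 and 0.77 in fasted replicates 1 to 4, against -2.51, 0.40, -2.58 and -0.89 in satiated replicates 1 to 4. The overlap came from satiated replicate 2, which lay just above fasted replicate 3. Leaving out any array but that of satiated replicate 2 ended the call (limma, adjusted p = 0.053 to 0.0862).

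Of the REV-ERB genes, which act against RORA at its elements, Nr1d2 fell by 0.77 on the log2 scale (SE 0.19, limma, adjusted p = 0.0247). Leaving out any of 5 arrays ended that call (adjusted p = 0.0531 to 0.0659). Nr1d1 had a difference of -0.15 ± 0.75 (limma, adjusted p = 0.916), with 2.52 in fasted replicate 3 and -1.24 in fasted replicate 1.

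Per3, one of the period genes, had a difference of -1.62 ± 0.43 (limma, adjusted p = 0.0315) and was well above background on only 2 of 4 fasted arrays, against all 4 satiated arrays. It was -5.18, -4.72, -4.57 and -5.88 in fasted replicates 1 to 4, against -2.92, -4.16, -2.65 and -4.12 in satiated replicates 1 to 4. With normexp background correction the difference was -0.45 and not called (limma, adjusted p = 0.174). The call was also lost without fasted replicate 1 or 4 or satiated replicate 1 or 3 (limma, adjusted p = 0.067 to 0.0777). Timeless, best known in mammals for its role at replication forks, fell by 1.14 on the log2 scale (SE 0.18, limma, adjusted p = 0.00443). Per1, Per2, Cry1, Cry2 and Clock, with differences of 0.50, -0.14, 0.13, 0.75 and 0.16, did not pass.

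**Figure D4:**
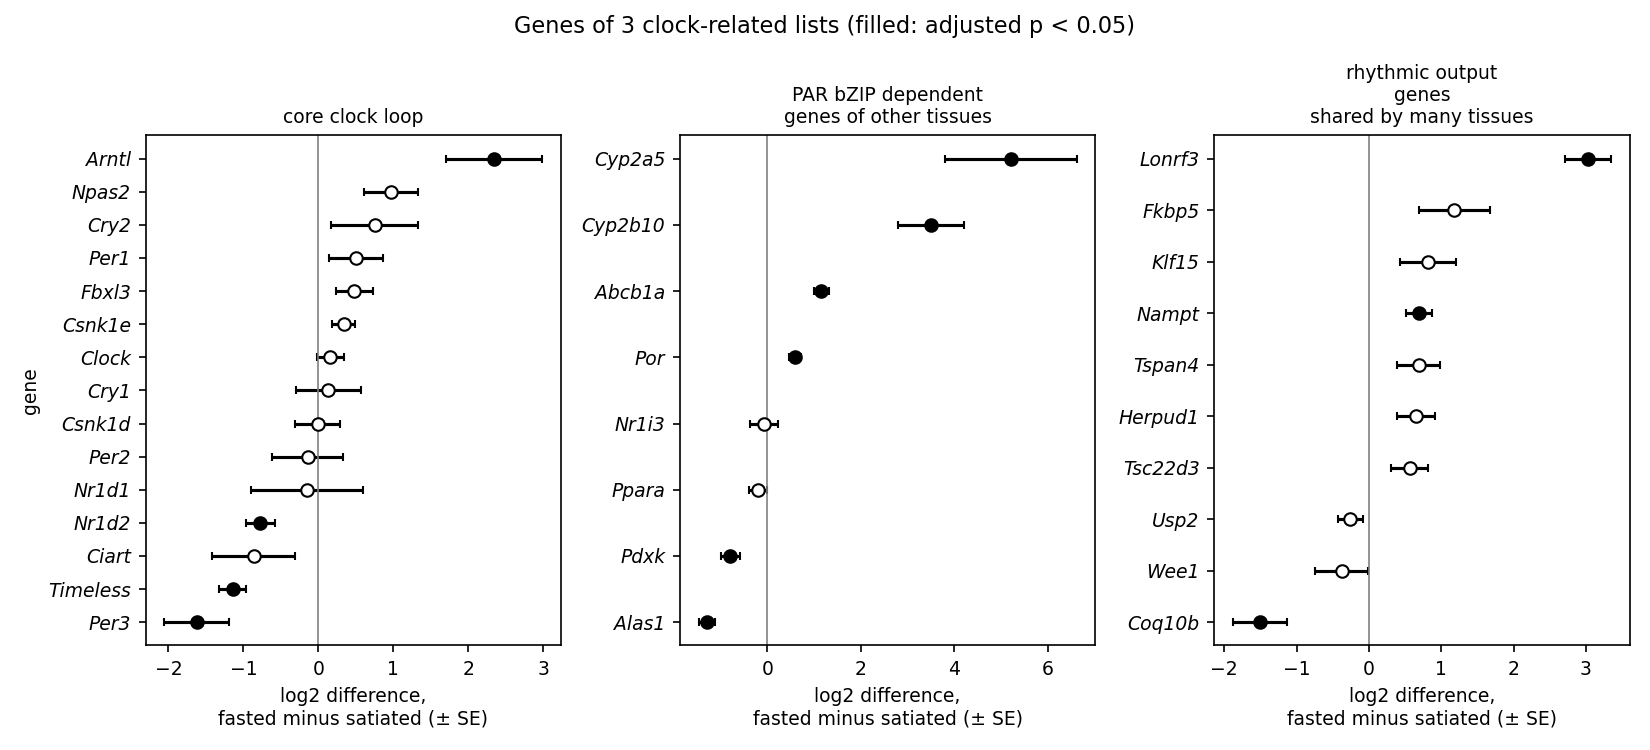
Each panel is 1 list of clock-related genes; the x axis is the log2 difference, fasted minus satiated, ± SE (4 hearts per group), and filled points passed at an adjusted p under 0.05. In the core list Arntl has the largest positive difference, 2.34, and Per3 the largest negative one, -1.62; with normexp background correction Per3 is at -0.45, nearer to 0 than Timeless at -0.95 and Nr1d2 at -0.78.

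Genes that depend on the PAR bZIP factors in liver or other tissues moved in both directions. All 8 listed genes were tested. Of these 4 rose, 2 fell and 2 did not pass, which is 75% called against 20.2% of all tested, with a median of 0.27. When only probes well above background on all 8 arrays were kept, 6 of the genes were tested. Of these 4 were called, against 25.4% of all tested. Alas1, the first enzyme of haem synthesis, fell by 1.29 on the log2 scale (SE 0.17, limma, adjusted p = 0.0025), with 4.53, 3.90, 4.00 and 4.48 in fasted replicates 1 to 4, against 5.54, 5.69, 5.37 and 5.49 in satiated replicates 1 to 4. Pdxk, the kinase that makes active vitamin B6, fell by 0.79 (SE 0.20, limma, adjusted p = 0.0281). Leaving out any of 6 arrays ended that call (adjusted p = 0.0546 to 0.0703), and so did the mean of its probes, with -0.53 (adjusted p = 0.0677).

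In the other direction, Abcb1a, a drug efflux pump, rose by 1.15 ± 0.16 (limma, adjusted p = 0.00271), with -0.97, -0.77, -0.98 and -1.21 in fasted replicates 1 to 4, against -2.11, -1.82, -2.41 and -2.18 in satiated replicates 1 to 4. Por, the reductase that feeds electrons to cytochromes P450, rose by 0.60 ± 0.13 (limma, adjusted p = 0.014). The cytochromes P450 Cyp2b10 and Cyp2a5 were also called higher, but several of their satiated signals were not well above background, so the sizes of their differences are uncertain. Cyp2b10, well above background on 4 fasted and 2 satiated arrays, differed by 3.51 ± 0.70 (limma, adjusted p = 0.0114), or by 1.63 with normexp background correction, where it was still called. Cyp2a5, well above background on 3 fasted arrays and 1 satiated array, differed by 5.20 ± 1.41 (limma, adjusted p = 0.0345), or by 2.60 with normexp, where it was still called. The Cyp2a5 difference was 7.82 on slide 1 and 2.58 on slide 2. Its call was lost with the replicate number as a block (adjusted p = 0.0775), which left 5 of the 8 genes called against 32.1% of all tested, and without any of 6 arrays (adjusted p = 0.0755 to 0.0903). Cyp2a5 has a near-identical copy, Cyp2a4, that its probe may not tell apart. The nuclear receptor genes Nr1i3 and Ppara had differences of -0.06 ± 0.30 and -0.19 ± 0.19 and did not pass.

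Among 10 genes with a daily rhythm in many tissues, 2 rose, 1 fell and 7 did not pass. That is 30% called against 20.2% of all tested, with a median difference of 0.67. With the slide as a block 4 were called, against 35.5% of all tested. A block on replicate number gave 5, against 32.1%. Lonrf3, a RING-finger protein gene, rose by 3.03 ± 0.31 (limma, adjusted p = 0.000993), with -0.07, -0.95, -0.28 and 0.37 in fasted replicates 1 to 4, against -3.83, -3.34, -2.77 and -3.12 in satiated replicates 1 to 4. Nampt, which makes the NAD precursor NMN, rose by 0.69 ± 0.17 (limma, adjusted p = 0.0268). Coq10b, which acts in the use of coenzyme Q, fell by 1.51 on the log2 scale (SE 0.37, limma, adjusted p = 0.0253). As the mean of its probes its difference was -0.79 and not called (adjusted p = 0.0602). The Nampt call was lost without any of 5 arrays (adjusted p = 0.0623 to 0.0764) and the Coq10b call without any of 4 (adjusted p = 0.0584 to 0.0654).

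Hearts of the same group also differed among themselves. Among the satiated hearts, replicates 1 and 3, which lay on different slides, were above the group mean for all 3 PAR bZIP genes, by 0.44 and 0.16 for Dbp, 0.39 and 0.26 for Tef and 0.38 and 0.44 for Hlf. Replicates 2 and 4 were below it for all 3 genes. The same satiated replicates 1 and 3 were above the mean for Per3 (0.54 and 0.82) and Nr1d2 (0.30 and 0.18) and below it for Arntl (-1.11 and -1.18). Among the fasted hearts, replicate 3 was the highest for Dbp, Tef, Hlf, Per3 and Nr1d2 and the lowest for Arntl, while Nfil3 departed most in replicate 2, at -1.23. These are descriptions of single hearts with no test. The array of fasted replicate 3 also had the lowest limma array weight, 0.28, which marks it as the most variable array. The next lowest weight was 0.65, for fasted replicate 4. Whether the heart or its array differed was not tested.

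**Figure D5:**
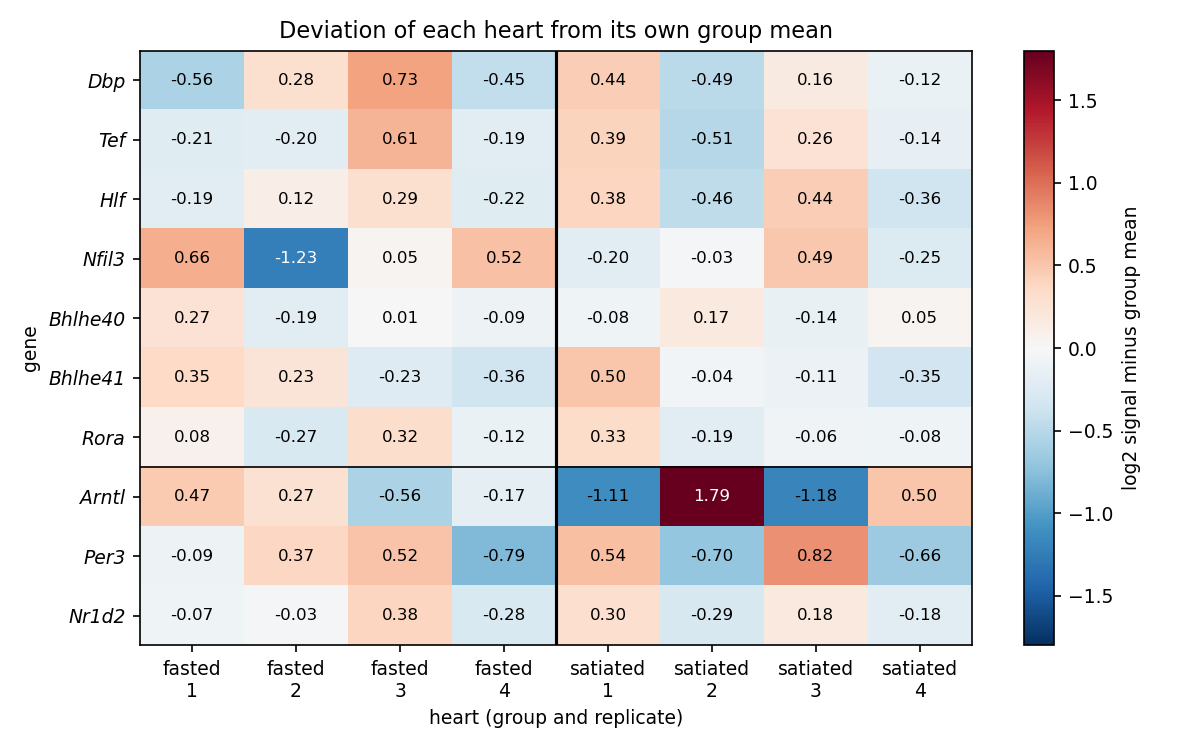
Rows are the 7 genes and, below the line, 3 core clock genes; columns are the 8 hearts. Colour and number give the log2 signal minus the mean of the heart's own group. Satiated replicates 1 and 3 are positive for Dbp, Tef, Hlf, Per3 and Nr1d2 and negative for Arntl.

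For each of the 7 genes, the most similar profiles over the 8 arrays, after each slide's mean was taken out, were looked up by Pearson correlation among the genes with a symbol. For Dbp they were Carnmt1 (r = 0.997) and Cdc34 (0.994), for Tef Sycn (0.988) and Zmat4 (0.979), and for Hlf Ifna13 (0.99) and Wrnip1 (0.978). For Nfil3 they were Srsf7 (0.988) and Terf2ip (0.987), for Bhlhe40 Stard4 (0.991) and C1qtnf12 (0.987), for Bhlhe41 Bach1 (0.981) and Rhobtb1 (0.98), and for Rora Ccdc86 (0.998) and Rabac1 (0.995). The 8 points share the difference between the groups, and each pair is the best of many, so these values are descriptions. Of these 14 genes only C1qtnf12 was itself called, with a difference of -0.39 ± 0.10 (limma, adjusted p = 0.0295).

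All 9 cardiomyocyte markers were measured. Of these Actc1 fell and 8 did not pass, and their summed linear signal, in multiples of the array's 75th percentile, was 2689 to 3891 in the fasted hearts and 2942 to 3867 in the satiated hearts. Of 7 fibroblast markers 5 fell (Col1a1, Col1a2, Lum, Postn and Tcf21), Dcn rose and Pdgfra did not pass. Their summed signal was 237 to 289 in the fasted hearts and 226 to 243 in the satiated hearts. That sum mostly follows Dcn, the brightest probe of the list, with mean log2 signals of 7.78 fasted and 7.22 satiated. It does not reflect the 5 markers that fell, and no such sum here measures the number of cells. In the lymphocyte and natural killer list Ms4a1 rose and 6 of 7 tested did not pass, with a summed signal of 0.449 to 1.05 in the fasted hearts and 0.367 to 0.567 in the satiated hearts, and in the smooth muscle and pericyte list Acta2 fell and 5 of 6 did not pass. Limma called 0 of 7 endothelial, 0 of 6 macrophage and 0 of 6 adipocyte markers, of which 1, 1 and 2 had an unadjusted p under 0.05. Of all 20199 tested, 20.2% were called and 6833 had an unadjusted p under 0.05. With the slide as a block 3 endothelial, 0 macrophage and 0 adipocyte markers were called, against 35.5% of all tested. Those 2 adipocyte markers, Plin1 and Retn, differed by -0.21 and -0.33 on slide 1 and by -2.87 and -3.20 on slide 2. Over all 8 arrays Plin1, Retn, Adipoq, Cfd, Fabp4 and Cidec differed by -1.54, -1.77, -0.03, 0.22, 0.13 and 1.01, with a median of 0.05. Cd8a, Cd79a, Gzma and Lep were too dim to test. Whether such shifts contribute to the differences of the 7 genes was not tested.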

How the data were processed

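The deposited scanner files hold spot intensities on a linear scale, background-subtracted within each array by Agilent Feature Extraction and not normalized between arrays, per the file headers (version 10.5.1.1 for slide 1 and 10.7.3.1 for slide 2; the submitters' processing notes name 9.1). The deposited table of the series holds linear ratios whose divisor no source used here gives; it served as an alternative. From each array, log2 intensities were taken, 1639 control spots and 55 to 165 outlier spots were left out, spots of a probe were averaged and the 75th percentile was subtracted. The 26476 probes well above background on at least 4 arrays were kept. Probe accessions were named through RefSeq's genes of GRCm38.p6 (1 symbol for 26690 probes, several for 0, none for 14484), and each symbol is represented by its brightest kept probe. The fasted-minus-satiated difference was fitted in limma 3.58.1 (lmFit, eBayes), under R 4.3.3 with the data.table package, version 1.17.8, two-sided, without covariates, on 8 arrays. The method was tested on simulated data. Figures were drawn with matplotlib 3.10.9 and tables handled with pandas 2.3.3.

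The labels number the samples but do not say outright that each is a separate mouse, so p-values reflect only how these samples vary, which may be technical. Their number, 4 per group, limits the precision. Same-numbered hearts deviated together from their group means (r = 0.331 to 0.493 across genes), and each pair shares a slide; taken from the means within each slide, r was -0.105 and 0.052. The 7 genes and all lists were chosen with earlier results of these data known. For 1 gene of the core clock list the result is not reported here, and the counts of that list leave it out. Named in the text are the 7 genes, called members of each list, and the 2 most similar profiles for each of the 7 genes; any other list gene or marker named was chosen after its values were seen. Alternatives were the dim-probe filter, background correction, normalization, the ratio table, slide and replicate blocks, slides alone, array weights, probe averaging and leaving out each array.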

Additional observations from a re-analysis of the deposited data

Results flagged for a closer look

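Of 40 groups of 4 hearts examined (the 7 genes and the called list genes, fasted and satiated), 2 had a heart far from the other 3 by Dixon's criterion, where chance alone gives about 1 in 20 groups. For Tef in the fasted hearts the gap was 0.976 of the group's range, with fasted replicate 3 at 3.66 and the others at 2.84 to 2.86. For Cyp2a5 in the fasted hearts it was 0.854, with fasted replicate 3 at -5.24 and the others at -0.31 to 0.54. Both times the heart was fasted replicate 3, whose array had the lowest limma array weight, 0.28.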

How the results depend on the processing

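Over 20 alternatives, Dbp, Nfil3, Bhlhe40 and Rora kept their directions, and all 4 stayed called with normexp background correction (chosen after the data were seen, on the median signal, as the mean signal planned for it was not used here), quantile or median normalization, the ratio table, array weights, probe averages, the stricter dim-probe filter, and the slide or replicate block. Hlf and Bhlhe41 passed in no alternative. On slide 1 alone the differences were 1.40 for Nfil3, -0.68 for Bhlhe40 and 0.58 for Rora, and on slide 2 alone -2.44 for Dbp, 1.74 for Nfil3, -0.67 for Bhlhe40 and 0.92 for Rora, none of them called with 2 hearts per group. With dim probes kept, the unchanged differences of Nfil3 (1.57) and Rora (0.75) lost their calls, as did those of Arntl, Nr1d2, Per3, Por, Pdxk, Cyp2a5, Nampt and Coq10b; more features were tested and the unadjusted p of Nfil3 and Rora also moved, and the cause was not tested. Tef turned positive with median normalization (0.0007), on slide 2 (0.14) and as the mean of its probes (0.16), and ranged from -0.20 to 0.13 when single arrays were left out.

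Of the 7 genes, 2 were called with dim probes kept, 1 on slide 1, 0 on slide 2 and 2 to 4 without single arrays. On slide 2 limma gave 4 of the 7 an unadjusted p under 0.05, and 5331 of all 20199 tested. Over all features, 6.8% of 32701 were called with dim probes kept. Of 20199, 9.32% were called on slide 1, 0.00495% on slide 2 and 12.4% to 18.3% without single arrays. With the replicate block 32.1% were called. Left-out ranges were -2.80 to -2.37 for Dbp, 1.35 to 1.98 for Nfil3 and 0.64 to 0.86 for Rora. All calls numbered 4073, and 2225 with dim probes kept, 1883 on slide 1, 1 on slide 2, 7177 with the slide block, 6489 with the replicate block and 2495 to 3690 without single arrays, the lowest without satiated replicate 4 and then 2522 without satiated replicate 2. In the core clock list, with 4 called, 1 was called with dim probes kept, 1 on slide 1, 0 on slide 2, 7 with the replicate block and 1 to 4 without single arrays. In the PAR bZIP list the numbers were 3, 3 and 0 for the first 3 of these settings and 4 to 5 without single arrays. In the list of rhythmic genes they were 1, 1 and 0, 5 with the replicate block and 1 to 3 without single arrays. On slide 2 limma gave 4 of 15, 5 of 8 and 4 of 10 genes of these 3 lists an unadjusted p under 0.05. Over all tested it gave 5331 of 20199. The replicate block changed no call of the 7 genes, and of the 13 called list genes it ended the call of Cyp2a5. Among 13 called list genes, 187 of 257 values kept direction and call, 70 kept direction only and 0 reversed.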
